A study of Homo sapiens with 11 samples.

Results

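The THE1 elements are a primate-specific family of retrovirus-like repeats. Their members here were all rows of the repeat tables whose name begins with LTR/ERVL-MaLR_THE1, which are 60662 of 5622516 repeat elements. They comprised 50213 long terminal repeats (LTRs) and 10449 internal regions, whose names end in -int. The LTRs were 4308 THE1A, 22924 THE1B, 10046 THE1C and 12935 THE1D elements. The internal regions were 1481 THE1A-int, 4277 THE1B-int, 1824 THE1C-int, 2667 THE1D-int and 200 elements named THE1-int without a subfamily letter.

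The cells were HCT116, a line established from a human colorectal carcinoma, and 3 libraries held the RNA pulled down with J2, which recognises double-stranded RNA. One library was from cells with an siRNA against luciferase and the solvent DMSO (siLuc DMSO). The second had the same control siRNA and decitabine (siLuc DAC), a nucleoside that lowers DNA methylation, listed at 500 nM for 5 days. The third had decitabine together with an siRNA against Staufen1, which binds double-stranded RNA (siStau1 DAC). There was 1 library per group, so no difference between conditions could be tested, and every comparison describes single libraries. Values given in threes follow the order siLuc DMSO, siLuc DAC, siStau1 DAC. The intervals given cover counting error only. No J2 library had the Staufen1 siRNA without decitabine, so in J2 RNA the knockdown is seen only under the drug. The labels' shared protocol text names a Staufen1 antibody for the enrichment, whereas the labels of these 3 libraries name J2.

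THE1 belongs to the mammalian apparent LTR retrotransposons (MaLR), a group related to the ERVL retroviruses. A complete copy has an internal region between a pair of LTRs, and recombination between the LTRs leaves most copies as a solitary LTR. Within MaLR the MLT1 elements are oldest, the MST elements younger and the THE1 elements youngest. THE1 LTRs contain promoter sequence, and THE1B LTRs are known as alternative promoters, for example of CSF1R in Hodgkin lymphoma. Such LTRs are usually kept silent by DNA methylation, and transcripts read from copies in opposite directions can pair into double-stranded RNA.

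The files name an element by its class, subfamily and a number whose meaning is not given, and where a name recurs, by a running number. They give no genome positions and no lengths, so an element cannot be placed in or near a gene, and levels of LTRs and internal regions are not compared per length. THE1 copies resemble each other closely, and how reads that match several copies were shared is not stated, so the reads of a single element are uncertain.

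The libraries held 71473124, 68944777 and 83037330 reads on repeats. In total RNA, measured in 2 libraries per group, the authors' deposited table gave the targeted STAU1 mRNA a log2 fold change of −0.31 for the Staufen1 over the control siRNA under decitabine, at a q-value of 0.685. Under DMSO the authors' deposited table gave −0.24, at a q-value of 0.767. The groups labelled siStau1 were thus lower in that table but not called different.

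THE1 elements took a similar, small part of the J2 reads in all 3 libraries. They had 503717, 494174 and 649494 reads. As a share of the reads on repeats this was 0.705% for siLuc DMSO, with a Wilson 95% interval from 0.702% to 0.708% when every 2 reads are taken as 1 draw. The share was 0.717% (0.714% to 0.720%) for siLuc DAC and 0.782% (0.779% to 0.785%) for siStau1 DAC. Among reads on LTR-class elements their part was 13.1%, 10.8% and 11.2%. The share of all repeat reads was thus highest in siStau1 DAC, while the share of LTR-class reads was highest in siLuc DMSO.

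Most THE1 copies had no reads, as did most repeats. Of the 60662 elements, 38916 (64.2%) had no read in any library, close to the 65.6% of all repeat elements, and 8585 had reads in all 3. Without reads were 66.6% of the LTRs and 52.4% of the internal regions, against 70.1% of LTR-class elements outside THE1. Elements with reads numbered 15442, 12164 and 16903. The siLuc DAC library therefore had the fewest THE1 elements with reads, although its THE1 total was close to that of siLuc DMSO. Outside THE1, LTR-class elements with reads numbered 136402, 134957 and 162641, with the siLuc pair closer together.

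Levels are given as RPM, reads scaled to 1000000 reads on repeats. Among the LTRs, THE1B had 1627, 1697 and 1807 RPM. THE1D had 803, 880.2 and 944 RPM, and THE1C 715, 779 and 799. THE1A, the youngest subfamily, had 317, 357 and 406 RPM. All 4 LTR subfamilies had the same order of libraries, lowest in siLuc DMSO and highest in siStau1 DAC, under this scaling. Scaled to reads outside Alu, the log2 ratio of siLuc DAC over siLuc DMSO for the LTRs together was −0.22 instead of 0.10. Scaled to LTR-class reads outside THE1, that of siStau1 DAC over siLuc DMSO was −0.22 instead of 0.19. The internal regions did not all share that order. THE1A-int did, with 753, 827 and 925 RPM. THE1B-int had 1429.9, 1277 and 1497 RPM, and THE1C-int 576, 548 and 607. In both of these siLuc DAC was the lowest library. THE1D-int had 776, 772 and 792 RPM, and without its copy with most reads, THE1D-int_7846, 688, 596 and 681, so that siLuc DAC was then lowest here too. THE1C-int without its top copy had 491.1, 490.5 and 523 RPM, with the siLuc pair nearly equal. The small THE1-int group had 50.4, 31.0 and 45.1. Of all THE1 reads, internal regions held 50.9% (Wilson 95% interval 50.7% to 51.1%), 48.2% (48.0% to 48.4%) and 49.4% (49.3% to 49.6%).

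**Figure D1:**
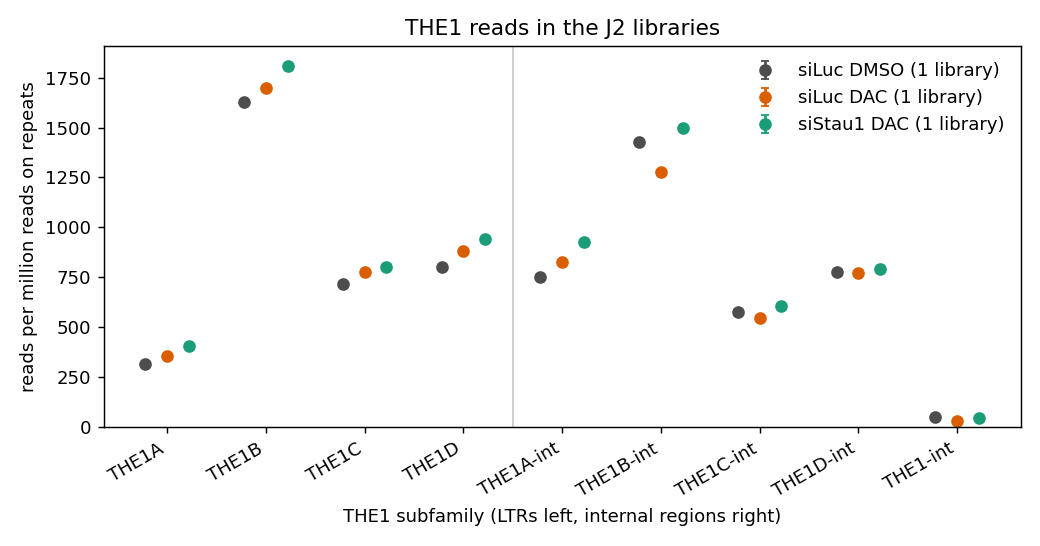
RPM, reads scaled to 1000000 reads on repeats (vertical axis), for the 9 THE1 subfamilies in the 3 J2 libraries, 1 point per library, with Wilson 95% intervals for counting error that are mostly smaller than the points. Under this scaling the 4 LTR subfamilies climb from siLuc DMSO to siStau1 DAC, while THE1B-int and THE1C-int are lowest in siLuc DAC.

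Reads were spread unevenly over the THE1 elements. Among elements with reads, the median was 6, 8 and 7 reads, while the top element of each library had 11148, 12129 and 20581 reads. Elements with at least 1000 reads numbered 47, 51 and 62. The 10 elements with most reads held 10.02%, 11.3% and 10.8% of all THE1 reads. Over all repeat elements the top 10 held more of the reads, 20.9%, 23.2% and 18.5%. Within THE1A-int, a smaller group, the top 10 held 50.3%, 53.5% and 56.4%. In THE1A-int the sum thus came to a large part from few copies.

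Over the 3 libraries together, the THE1 copy with most reads was the internal element THE1A-int_11343, with 11148, 11213 and 20581 reads. Its scaled level was close in the siLuc pair, at 156 and 163 RPM, and higher in siStau1 DAC, at 248. The element in the adjacent row, the LTR THE1A_2873, had the most reads of any THE1A LTR over the 3 libraries, with 922, 1923 and 3059 reads. This LTR was already higher in siLuc DAC, by a log2 ratio of 1.11 over siLuc DMSO, where its internal neighbour had 0.06. THE1D-int_7846 had 6320, 12129 and 9201 reads. It also lay next to the THE1D LTR with most reads over the 3 libraries, THE1D_1887_12, with 653, 2314 and 1926 reads. Both members of that pair were highest in siLuc DAC. The element THE1C-int_10051_2 had 6037, 3967 and 6929 reads, and THE1B-int_5067 had 2952, 1924 and 3369. These were lowest in siLuc DAC, as were THE1-int_777, with 1035, 486 and 904 reads, and the LTR THE1B_2201_17, with 3014, 1987 and 3024. The LTR THE1C_2595_5 went the other way, with 2278, 2840 and 1787 reads. Among the top copies there was thus no common order of the libraries.

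Decitabine in control cells is addressed by siLuc DAC over siLuc DMSO, the comparison that asks whether loss of DNA methylation brings THE1 RNA into the double-stranded pool. Summed THE1 reads barely differed, with a log2 ratio of 0.02 (exact binomial 95% interval 0.02 to 0.03) after scaling to reads on repeats. LTRs had 0.10 (0.09 to 0.11) and internal regions −0.05 (−0.07 to −0.04). By subfamily the sums of the LTRs lay between 0.06 in THE1B and 0.17 in THE1A. Those of the lettered internal regions lay between −0.16 in THE1B-int and 0.14 in THE1A-int, and THE1-int, with 3601 and 2138 reads, had −0.70. Without the copy with most reads in each subfamily, THE1A had 0.11. Of the lettered internal regions THE1D-int was then lowest, at −0.21, with THE1B-int at −0.15, THE1C-int at −0.0015 and THE1A-int at 0.15. The direction of the THE1 sum depended on the scaling, with 0.91 by the factors in the deposited columns and −0.30 when scaled to reads outside Alu elements. Single elements spread more widely, with quartiles of −0.72 and 1.01 around a median of 0.23.

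Element by element, 5701 THE1 elements with at least 20 reads in the siLuc pair together were compared, as log2 ratios with 0.5 reads added. Of these, 1448 (25.4%) were at least 2-fold higher in siLuc DAC, against 21.3% of all repeat elements, and 1173 (20.6%) at least 2-fold lower, against 17.0%. THE1 shares were above those of all repeats in both directions. Of LTR-class elements outside THE1, 37.2% were higher and 11.7% lower, so THE1 was less often higher and more often lower than these. MST had 34.5% higher and 14.6% lower, and MLT1 38.4% and 9.18%. LTRs and internal regions of THE1 split: 31.2% of 3870 LTRs were higher and 16.7% lower, while 13.1% of 1831 internal regions were higher and 28.7% lower. The median log2 ratio was 0.40 for LTRs and −0.07 for internal regions, 0.01 for all repeats and 0.61 for LTR-class elements outside THE1. The 4 LTR subfamilies were alike, with medians from 0.36 in THE1A to 0.42 in THE1B. The lettered internal subfamilies ranged from −0.25 in THE1D-int, where 34.6% of 358 elements were lower, to 0.05 in THE1A-int and THE1C-int. Scaled to reads outside Alu elements, which took a smaller share in both DAC libraries, the THE1 counts were 1030 higher (18.1%, against 15.7% of all repeat elements) and 1465 lower (25.7%, against 25.1%). With the factors in the deposited columns, which put the median of all repeat elements at 0.90, they were 3068 higher (53.8%, against 46.2%) and 813 lower (14.3%, against 6.73%). The balance also turned with the size of the difference when scaled to all repeats: 465 THE1 elements (8.16%) were at least 4-fold higher, against 8.77% of all repeat elements, and 773 (13.6%) at least 4-fold lower, against 6.04%. Elements tested with 0 reads in siLuc DAC fall among those at least 4-fold lower by construction. With 20 or more reads in both other libraries, 10.02% of THE1 and 2.15% of all repeat elements were at 0 there. The part of these in the 4-fold shares was not tested. The direction for THE1 as a whole thus depended on the scaling and on the fold. The medians of LTRs and internal regions differed by 0.47. Scaling shifts every element alike and the fold does not enter a median, so neither can change this difference. It did change with read depth, turning at 200 to 999 reads, with 0.08 for LTRs and 0.20 for internal regions.

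**Figure D2:**
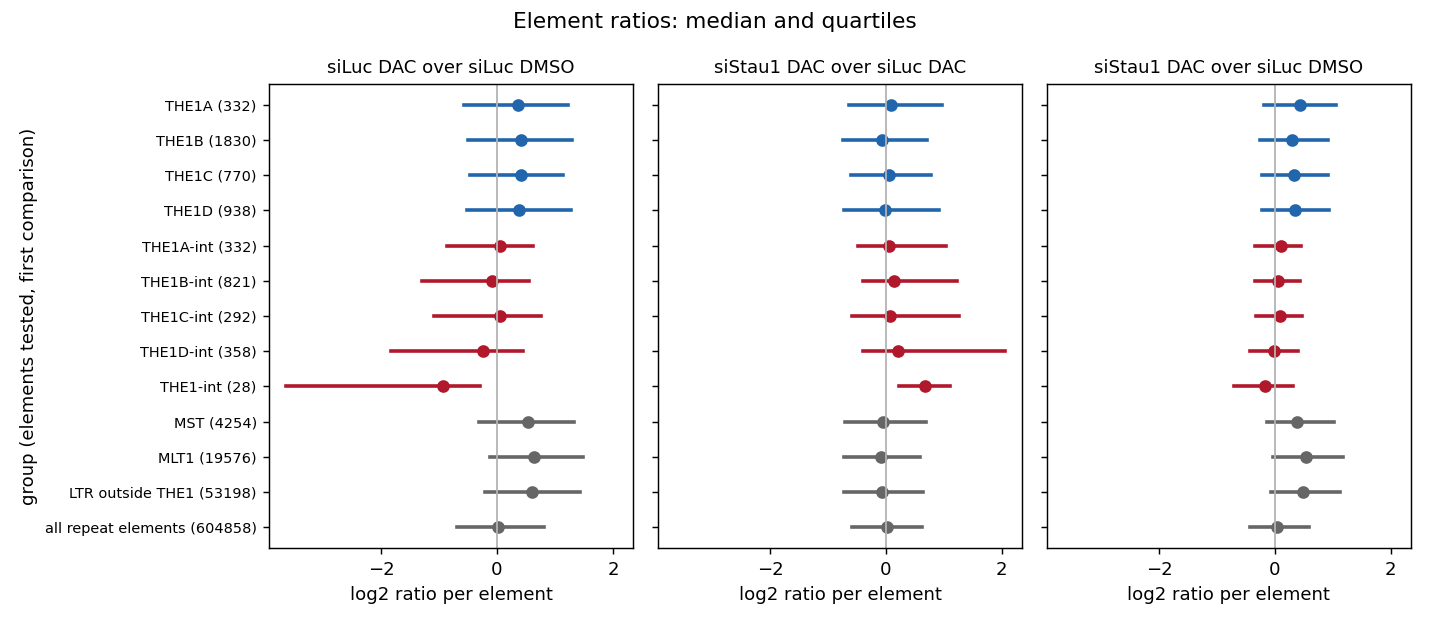
Log2 ratio per element (horizontal axis) in the 3 comparisons, with points for the median and lines from the lower to the upper quartile, for THE1 LTR subfamilies (blue), THE1 internal regions (red) and other groups (grey). In siLuc DAC over siLuc DMSO the LTR medians lie between 0.36 and 0.42, to the right of the internal regions and to the left of LTR-class elements outside THE1 at 0.61.

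In both comparisons with siLuc DMSO the ratios fell from MLT1 over MST to THE1, from the oldest to the youngest of these families. The summed log2 ratio of siLuc DAC over siLuc DMSO was 0.49 for MLT1, 0.15 for MST and 0.02 for THE1, and the element medians were 0.65, 0.53 and 0.23. In siStau1 DAC over siLuc DMSO, which shares its control library with the former, the sums were 0.50, 0.25 and 0.15. The THE1 sums pool LTRs, at 0.10 and 0.19, with internal regions, at −0.05 and 0.11. Within THE1 the LTR sums did not continue this fall, as THE1A, the youngest, had the highest, 0.17 and 0.36. Without the copy with most reads in each subfamily THE1A had 0.11 in the first comparison, level with THE1C at 0.11, and 0.28 in the second. The THE1A median was the lowest of the LTR subfamilies in the first of these comparisons, 0.36, and the highest in the second, 0.44. In siStau1 DAC over siLuc DAC, which reuses the siLuc DAC library, the order of the families was the opposite. The sums there were 0.01, 0.10 and 0.13 and the medians −0.08, −0.05 and 0.03. Among elements with 20 or more reads in both other libraries, 3.19% of MLT1, 6.61% of MST and 10.02% of THE1 had 0 reads in siLuc DAC. The part of these gaps in the order of the families was not tested. THE1 lay −0.32 from LTR-class elements outside THE1 in the sums of siLuc DAC over siLuc DMSO and −0.26 in those of siStau1 DAC over siLuc DMSO. These differences between groups do not depend on scaling. Their size beyond library variation could not be tested with 1 library per group.

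The split between LTRs and internal regions was largest in elements with few reads. With 20 to 49 reads in the siLuc pair, 2097 LTRs had a median log2 ratio of 0.48 and 620 internal regions −0.77. With 50 to 199 reads the medians were 0.44 and −0.06. With 200 to 999 reads the order turned, at 0.08 for 345 LTRs and 0.20 for 426 internal regions, and above that 53 LTRs had 0.34 and 73 internal regions 0.14. Differences in read depth between the classes therefore move with this result, and their part in it was not tested.

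**Figure D3:**
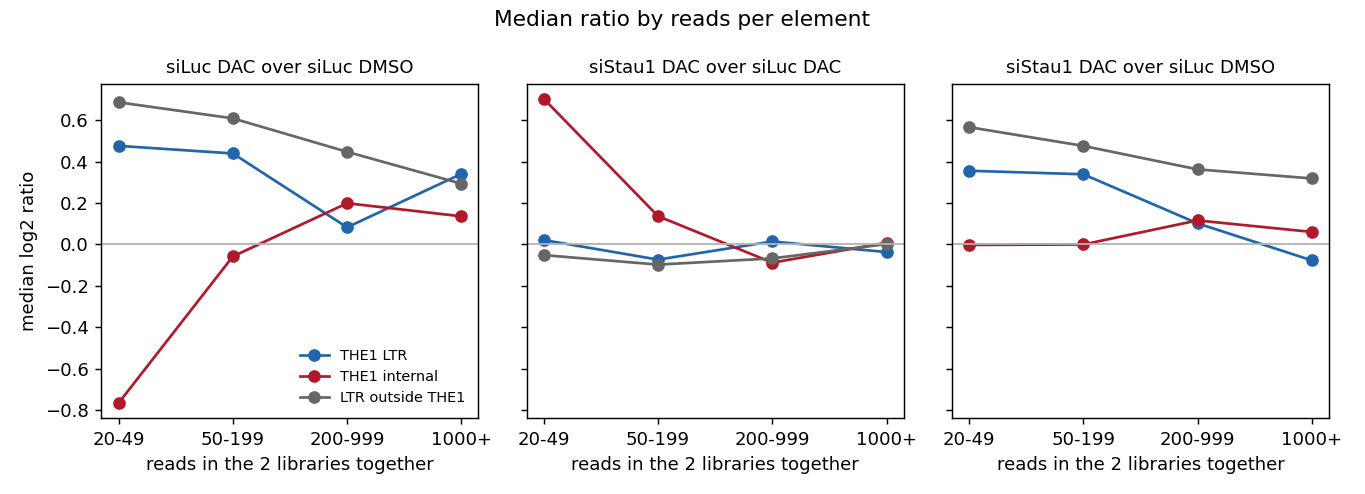
Median log2 ratio (vertical axis) by the number of reads an element had in the 2 libraries together (horizontal axis), for THE1 LTRs, THE1 internal regions and LTR-class elements outside THE1. At 20 to 49 reads the internal regions are at −0.77 in siLuc DAC over siLuc DMSO and at 0.70 in siStau1 DAC over siLuc DAC, while from 200 reads on the classes lie closer together.

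A feature of the siLuc DAC library bears on both comparisons that use it. Among 3185 THE1 elements that had 20 or more reads in both siLuc DMSO and siStau1 DAC, 319 (10.02%) had 0 reads in siLuc DAC. The same gap was found in 2 of 2950 THE1 elements for siLuc DMSO and in 0 of 2478 for siStau1 DAC. In siLuc DAC the gap was seen in 9.39% of LTRs and 10.9% of internal regions of THE1, in 6.61% of MST, 3.19% of MLT1 and 2.15% of all repeat elements. With at least 100 reads in each other library, 40 of 881 THE1 elements (4.54%) were at 0 in siLuc DAC, against 3.51% of MST and 0.681% of all repeat elements. THE1 was thus above MST and MLT1 at 20 reads, and nearer to MST at 100 reads. Elements of 1 library are not replicates and neighbouring rows often shared a gap, so no interval is given and these differences were not tested. The order of the classes also turned at 100 reads, with 6.58% of THE1 LTRs and 2.88% of internal regions. When THE1 elements with 0 reads in any library were left out, the summed log2 ratio of siLuc DAC over siLuc DMSO was 0.13 and that of siStau1 DAC over siLuc DAC 0.02. Since most well-covered elements left out were at 0 in siLuc DAC, this choice itself moves both sums in these directions.

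**Figure D4:**
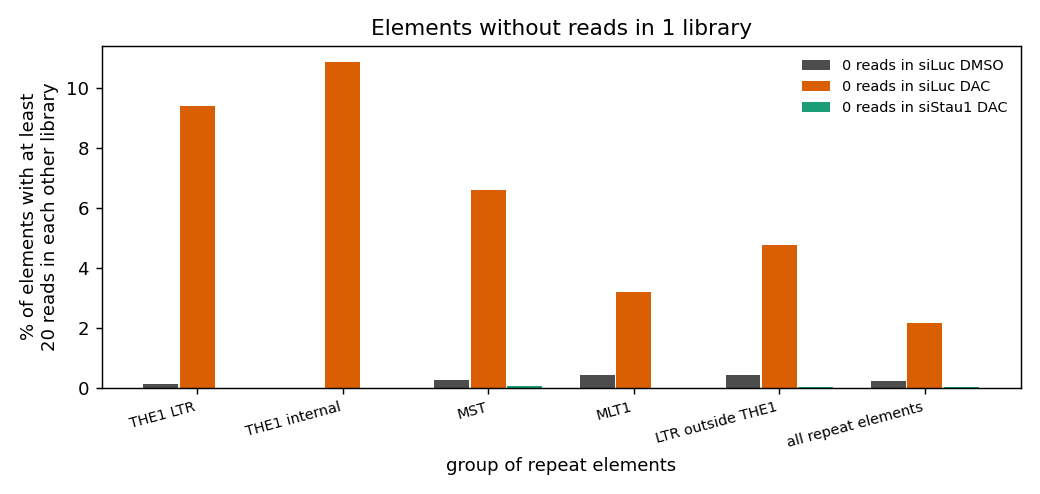
Percent of elements with 0 reads in 1 library (vertical axis) among those that had 20 or more reads in both other libraries, for THE1 LTRs, THE1 internal regions, MST, MLT1, LTR-class elements outside THE1 and all repeats. The bars for siLuc DAC reach 9.39% and 10.9% in THE1 and 2.15% over all repeats, and the other libraries stay near 0.

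The elements at 0 in siLuc DAC included well-covered copies. The LTR THE1B_2350_12 had 897, 0 and 822 reads. THE1C_2591_5 had 569, 0 and 354 reads, THE1B_2142_13 had 409, 0 and 604, THE1C_1948_3 had 231, 0 and 524, and the internal element THE1B-int_11308 had 402, 0 and 361. Against a floor of 3 reads, THE1B_2350_12 had a log2 ratio of siLuc DAC over siLuc DMSO of at most −8.17, and THE1C_2591_5 of at most −7.52. The internal element THE1C-int_9101_2 had 2236, 2 and 2491 reads. Copies in the gap set had reads in siStau1 DAC by the way the set was chosen. For these 6 copies the log2 ratios of siStau1 DAC over siLuc DMSO ranged from −0.90 in THE1C_2591_5 to 0.97 in THE1C_1948_3. In the opposite direction, the highest ratios of siLuc DAC over siLuc DMSO, among copies with at least 100 reads in that pair, were those of THE1B_2150_34, with 7, 108 and 15 reads, THE1C_2270_8, with 56, 702 and 686, and THE1B_2054_16, with 8, 100 and 26. In siStau1 DAC, THE1C_2270_8 was at 8.26 RPM against 10.2 in siLuc DAC, a log2 ratio of −0.30, where THE1B_2150_34 had −3.12 and THE1B_2054_16 −2.21.

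**Figure D5:**
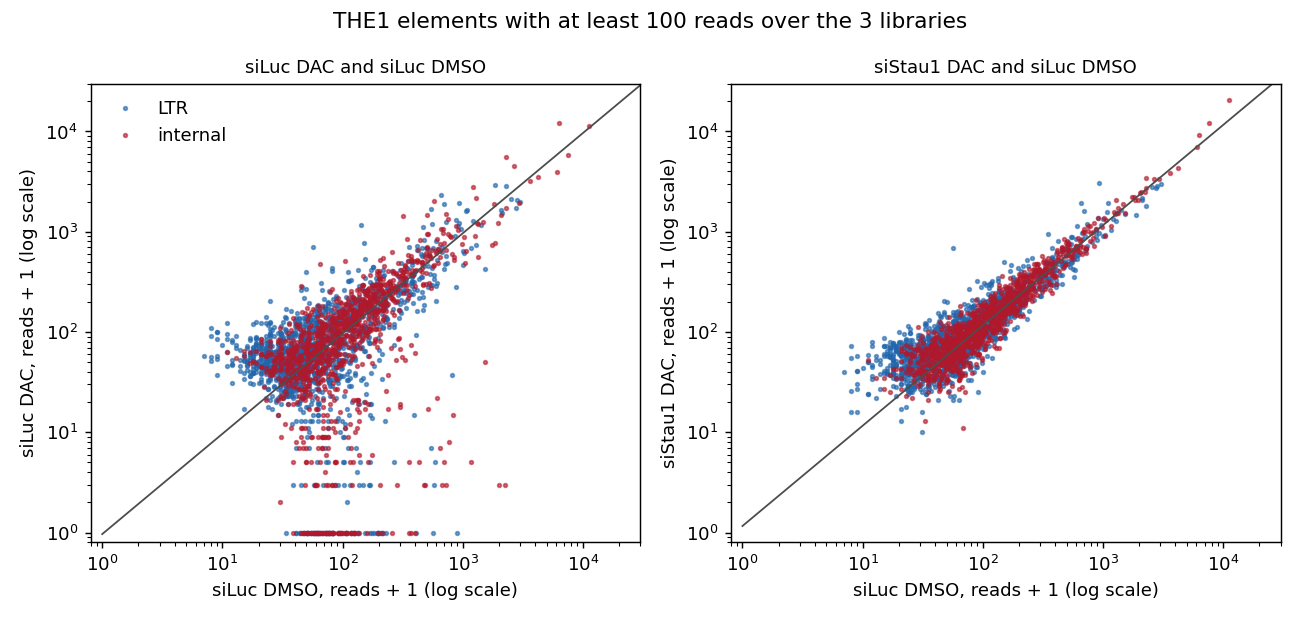
Reads plus 1 per element on log scales in siLuc DAC (left) and siStau1 DAC (right) against siLuc DMSO for the 2567 THE1 elements with at least 100 reads over the 3 libraries, LTRs in blue and internal regions in red, with a line at equal scaled reads. On the left 129 elements lie at 0 reads in siLuc DAC, and on the right no element lies at 0.

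Repeats listed next to the THE1 elements at 0 in siLuc DAC often had few or no reads there too. The order of rows is not explained in the files, but 87.8% of THE1 internal rows had a THE1 LTR in an adjacent row, against 1.63% of all rows, which is the order a copy has in the genome. Other repeats within 10 rows on each side of the 319 elements at 0 in siLuc DAC had a median of 45, 0 and 60 reads. For 176 of the 319 (55.2%) they too summed to 0 in siLuc DAC, against 2.34% for the 2866 elements with reads there. Around THE1B_2350_12 the neighbours had 1041, 8 and 1299 reads, and around THE1B_2142_13 they had 458, 2 and 807. The flanks of those 2866 elements were better covered in every library, with medians of 184, 206.5 and 238 reads, and the part of this difference was not tested. For these named elements the rows around them thus had few reads in siLuc DAC, though not 0.

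More broadly, the ratio of a THE1 element went with that of its neighbours where siLuc DAC was one of the libraries. Over 5302 elements, Spearman's rho between the log2 ratio of the element and of its neighbours was 0.49 in siLuc DAC over siLuc DMSO, and over 5919 elements it was 0.58 in siStau1 DAC over siLuc DAC. It was 0.097 over 5820 elements in siStau1 DAC over siLuc DMSO. These are descriptions across elements that share libraries, and neighbouring elements share flanks. In siLuc DAC over siLuc DMSO, 60.5% of the elements at least 2-fold lower had neighbours at least 2-fold lower, against 12.4% of all 5302 elements. Of the elements at least 2-fold higher, 33.1% had neighbours at least 2-fold higher, against 19.7%.

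LTRs next to an internal region and LTRs apart from one had similar medians. An internal row lay next to 14378 of the 50213 THE1 LTRs (28.6%), and the other 35835 had none in an adjacent row. This does not establish that they are solitary LTRs, since only adjacent rows were examined. In siLuc DAC over siLuc DMSO the median log2 ratio was 0.45 for 908 LTRs next to an internal row and 0.39 for 2962 LTRs without one. In either set 31.2% were at least 2-fold higher. Runs of adjacent THE1 rows that began and ended with an LTR row and held internal rows were also compared. Whether such a run is a single copy could not be checked without positions. Within 515 runs with at least 20 reads in each part, the LTRs had a median of 0.50 and the internal regions 0.19. The LTRs exceeded the internal rows of the same run in 333 of 515 (64.7%), with a median difference of 0.35 and quartiles of −0.28 and 1.04. The LTR part of a run thus tended to lie above its internal part, with wide variation between runs.

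The knockdown under decitabine is addressed by siStau1 DAC over siLuc DAC, the comparison that asks what Staufen1 does to THE1 RNA in the J2 fraction. Summed THE1 reads had a log2 ratio of 0.13 (exact binomial 95% interval 0.12 to 0.13), with 0.09 for LTRs and 0.16 for internal regions. Every subfamily sum was above 0, from 0.04 in THE1C and THE1D-int to 0.23 in THE1B-int and 0.54 in THE1-int. Without the copy with most reads in each subfamily all stayed above 0, but their order changed. THE1D-int then had 0.19, THE1C 0.08, and THE1A-int 0.03 instead of 0.16. With the factors in the deposited columns the THE1 sum was −0.20 and that of all repeat elements −0.32, so its sign turned with all repeats and its distance from them did not. Of 6276 elements, 1447 (23.1%) were at least 2-fold higher in siStau1 DAC, against 15.5% of all repeat elements, and 949 (15.1%) at least 2-fold lower, against 14.8%. LTR-class elements outside THE1 had 17.8% higher and 17.4% lower. With the deposited factors 1186 THE1 elements were higher (18.9%, against 10.55% of all repeat elements) and 1428 lower (22.8%, against 22.2%). Scaled to reads outside Alu, 1706 were higher (27.2%, against 20.1%) and 714 lower (11.4%, as for all repeat elements). Scaled to all repeats again, at least 4-fold higher were 875 THE1 elements (13.9%), against 5.87% of all repeat elements, and at least 4-fold lower 213 (3.39%), against 4.27%. The elements higher here include those at 0 in siLuc DAC, a gap seen in 10.02% of THE1 and 2.15% of all repeat elements covered in both other libraries. Without THE1 elements at 0 in any library the sum was 0.023, but most well-covered ones left out were at 0 in siLuc DAC, so this choice itself lowers it. In siStau1 DAC over siLuc DMSO, 4.12% of THE1 elements were at least 4-fold higher, against 3.81%. The part of the gaps in the sum and in these shares was not tested.

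The share of elements higher was larger among internal regions than among LTRs. Of 1866 internal regions 27.7% were at least 2-fold higher and 9.86% lower, and of 4410 LTRs 21.1% and 17.3%. The medians were 0.13 for internal regions and −0.02 for LTRs, and −0.07 for LTR-class elements outside THE1. This order too lay in elements with few reads, with 0.70 for internal regions and 0.02 for LTRs at 20 to 49 reads, and turned at 200 to 999 reads, with −0.09 and 0.01. Above that 84 internal regions had 0.0083 and 60 LTRs −0.037. THE1D-int had the largest part higher among the lettered subfamilies, 31.6% of 374 elements, with a median of 0.21. Among copies with at least 100 reads in the pair, those with the highest ratios, THE1B_2350_12, THE1B_2142_13 and THE1C_1948_3, were at 0 in siLuc DAC, with log2 ratios of at least 7.83, 7.39 and 7.18 against a floor of 3 reads. The lowest were THE1B_2597_6, with 30, 96 and 9 reads, THE1B_2150_34, and THE1B_1842_5, with 30, 94 and 15. At the high end siLuc DAC differed from both other libraries, while at the low end siStau1 DAC could stand apart too, with a log2 ratio over siLuc DMSO of −1.95 in THE1B_2597_6 and −1.22 in THE1B_1842_5. In 596 runs of adjacent THE1 rows with both parts covered, the medians were 0.02 for LTRs and −0.03 for internal regions, and the LTRs were above in 287 (48.2%).

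The comparison of siStau1 DAC with siLuc DMSO, which differ in both siRNA and drug, does not use the siLuc DAC library. Summed THE1 reads had a log2 ratio of 0.15 (exact binomial 95% interval 0.14 to 0.16), with 0.19 for LTRs and 0.11 for internal regions. The LTR subfamilies ranged from 0.15 in THE1B to 0.36 in THE1A. THE1A-int had 0.30, the other lettered internal subfamilies between 0.03 and 0.08, and THE1-int −0.16. Both THE1A groups had the highest sums of their kind, and without the copy with most reads in each subfamily they were 0.28 for THE1A and 0.18 for THE1A-int. Without the element with most reads in each subfamily, the THE1 sum was 0.13. Scaled to LTR-class reads outside THE1 it was −0.26, so THE1 was higher relative to all repeats and lower relative to other LTR-class elements.

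Of 6352 elements, 1184 (18.6%) were at least 2-fold higher in siStau1 DAC, against 14.5% of all repeat elements, and 457 (7.19%) at least 2-fold lower, against 8.27%. LTR-class elements outside THE1 had 28.8% higher and 4.59% lower, MST 25.5% and 4.95%, and MLT1 30.8% and 4.34%. Scaled to LTR-class reads outside THE1, 643 THE1 elements were higher (10.1%, against 8.45% of all repeat elements) and 909 lower (14.3%, against 18.2%). With the deposited factors 2444 were higher (38.5%, against 30.5%) and 155 lower (2.44%, against 2.78%). Scaled to all repeats again, at least 4-fold higher were 262 THE1 elements (4.12%), against 3.81% of all repeat elements, and at least 4-fold lower 79 (1.24%), against 1.35%, both near the shares of all repeats. Of 4269 LTRs 23.2% were higher and 6.63% lower, and of 2083 internal regions 9.22% and 8.35%. The medians were 0.32 for LTRs, 0.04 for internal regions and 0.49 for LTR-class elements outside THE1. The LTRs thus again lay above the internal regions and below other LTR-class elements, here without the gaps of siLuc DAC. In 610 runs of adjacent THE1 rows with both parts covered, the LTRs had a median of 0.35 and the internal regions 0.12. The LTRs were above in 376 (61.6%). As before, the medians of LTRs and internal regions differed at 20 to 49 reads, 0.36 and −0.0022, and from 200 to 999 reads were 0.10 and 0.12. Above that 63 LTRs had −0.077 and 90 internal regions 0.060. From 200 reads on the LTR medians thus did not lie above those of the internal regions.

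Among copies with at least 100 reads in the pair, THE1C_2270_8 had the highest ratio, a log2 of 3.40, from 56 reads in siLuc DMSO to 686 in siStau1 DAC. Its neighbours had 865, 2337 and 1466 reads, so the element differed more than the repeats around it. It was followed by THE1B_2250_7, with 14, 60 and 86 reads, and THE1B_2458_11, with 19, 30 and 99. The lowest were THE1A_2246, with 90, 0 and 24 reads, THE1B_2774, with 100, 0 and 39, and THE1B_2382_10, with 79, 112 and 32. No THE1 element with at least 100 reads over the 3 libraries was at 0 in siLuc DMSO or in siStau1 DAC.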

How the data were processed

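The 3 J2 libraries were deposited as 3 tables, 1 per pair, over the same 5622516 repeat elements. Values deposited for siLuc DMSO are counts with 1 added to each. In the other columns the authors deposited a signal that is the count plus 1 times 1 factor per library (1.92 for siLuc DAC, 1.27 for siStau1 DAC), found from the values. Dividing by the column minimum and subtracting 1 gave whole reads for 100.0% of values, within 1e-06. The submitters' processing notes name HISAT2 2.1.0, featureCounts, DESeq 1.36.0 and build hg38. How reads matching several copies were counted is not given in the sources used here. For STAU1 in total RNA, the log2 fold changes and q-values are the authors' own, per the file headers.

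Scaling used the reads on all repeats of a library. Element ratios used at least 20 reads in 2 libraries together and 0.5 reads added. In THE1, element counts of 2, 4 or 6 reads outnumbered 1, 3 or 5 (6853 against 1476 in siLuc DMSO), as when both mates are counted, so intervals took 2 reads as 1 draw. With 1 library per group no count model was fitted. Elements named singly were the 3 highest and 3 lowest ratios per comparison with at least 100 reads, the top element of each subfamily and up to 5 elements at 0 in 1 library. Members, lists and rules were chosen with earlier results of these data known, and the analysis of neighbouring rows and of read depth after the values were seen, as were the subfamily sums without their top element. Functions were tested on simulated data (Python 3.11.15, scipy 1.17.1).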

Additional observations from a re-analysis of the deposited data

How the results depend on the processing

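Each J2 group has 1 library, so no spread between replicates is known, and intervals for counting error are far narrower than the effect of the scaling. The summed THE1 log2 ratio of siLuc DAC over siLuc DMSO (0.02) was 0.91 with the deposited factors, −0.30 scaled to reads outside Alu, −0.32 scaled to LTR-class reads outside THE1, 0.0084 without the top element of each subfamily, 0.13 without elements at 0 in any library and 0.0054 without elements of 1000 or more reads. For siStau1 DAC over siLuc DAC (0.13) the values were −0.20, 0.34, 0.065, 0.13, 0.023 and 0.14, and for siStau1 DAC over siLuc DMSO (0.15) 0.72, 0.037, −0.26, 0.13, 0.15 and 0.15. Adding 1 or 0.1 reads kept each count within 1.5 times.

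Counts of elements at least 2-fold higher or lower moved with the read minimum and fold by construction. At 10, 50 and 1 reads, and at 4-fold, those higher in siLuc DAC over siLuc DMSO were 2216, 619, 5143 and 465, and those lower 2168, 486, 7606 and 773. For siStau1 DAC over siLuc DAC they were 2775, 567, 8817 and 875 higher, and 1606, 375, 4254 and 213 lower. For siStau1 DAC over siLuc DMSO they were 2307, 374, 7317 and 262 higher, and 1073, 98, 4987 and 79 lower. With the deposited factors 3068 were higher in the first comparison, 1428 lower in the second, and 2444 higher and 155 lower in the third. Scaled to LTR-class reads outside THE1 the third had 643 higher and 909 lower. The other 24 of 54 recomputed counts stayed within 1.5 times. No paired analysis was possible because the J2 libraries have no replicates and the total RNA table gives 1 value per group.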

Other observations

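The number in the name of a THE1 LTR, which the files do not explain, went with detection. With each subfamily cut into 4 bins of near equal size by this number, 6.59% of the THE1B LTRs in the lowest bin had at least 20 reads over the 3 libraries, and 13.6% in the highest. For THE1A these shares were 6.13% and 15.7%, for THE1C 7.13% and 13.9%, and for THE1D 6.43% and 13.8%. In each of the 4 LTR subfamilies the highest bin thus had the larger share.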
